A study of Homo sapiens with 6 samples.

Results

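The comparison described here is that of HEK293T cells treated with an siRNA against DDX3X and HEK293T cells treated with a control siRNA, each represented by 1 RNA-seq library. Expression was given as RPKM, the reads of a transcript per kilobase of its length, scaled to the reads of the library. The files hold 39618 rows, 1 per RefSeq accession, under 23204 gene symbols. Each symbol was represented by the row whose mean RPKM in the 6 libraries was highest, and a gene was compared when it reached 1 RPKM in either siRNA library and its row was at least 200 bases long. This left 12247 of 23204 symbols. Differences are given as the log2 ratio of DDX3X siRNA to control siRNA, computed from RPKM plus 1, a scale that understates the change of weakly expressed genes.

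HEK293T is a human embryonic kidney cell line that carries the SV40 large T antigen. Cells in the siRNA arm were exposed for 48 h to siRNA oligos, either the control or those against DDX3X, with no sorting described. The other 4 libraries came from cells transfected for 32 h with 5 µg of plasmid and sorted for GFP. The plasmids encoded GFP, or GFP fused to DDX3X as the wild type or with the T275M or G302V substitution, and these libraries are used here mainly to place the levels of single genes. No group had a second library, so neither a replicate spread nor a test of a difference can be given, and the loss of DDX3X, the siRNA itself and the culture it was applied to cannot be told apart.

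DDX3X is an ATP-dependent RNA helicase of the DEAD-box family that binds many mRNAs and takes part in the initiation of translation and in the assembly of stress granules. A well studied link between translation and transcription is the integrated stress response, in which phosphorylation of initiation factor eIF2 lowers general initiation while the transcription factor ATF4 is translated more. ATF4 then raises the genes for amino acid synthesis, amino acid uptake and the charging of tRNA.

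The recovered depth was 67520000 reads with control siRNA and 180870000 with DDX3X siRNA, 2.68 times as many. The values in brackets after a log2 ratio are exact 95% intervals from these reads. Pairs of levels joined by an arrow give control siRNA first and DDX3X siRNA second. The intervals cover counting error only and say nothing about the spread between cultures. The labels call the cells neuronal. Of 13 markers of embryonic kidney and the HEK293 line, 11 reached 1 RPKM in the control library and 10 in the DDX3X siRNA library, with summed levels of 409 and 363 RPKM. Of 13 neuronal markers, 5 reached 1 RPKM in each library, and their summed levels of 650.4 and 759 RPKM were mostly the neurofilament genes NEFM (519.8 → 609.7 RPKM) and NEFL (118 → 137 RPKM), whereas ELAVL4 was at 0 in both libraries. Only 1 of 8 fibroblast markers and 1 of 7 blood markers reached 1 RPKM.

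DDX3X itself (NM_001193416, chrX:41192601-41223725 in GRCh37) stood at 107 RPKM with control siRNA and 31.3 RPKM with its own siRNA, 29.3% of control (log2 ratio -1.74, 95% counting interval -1.76 to -1.72). It was at 119 RPKM in the GFP library. The siRNA library was the lowest of the 6, as its label says.

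Most differences beyond DDX3X were small. The median log2 ratio of the 12247 genes was -0.03, and 95% of genes lay between -0.45 and 0.45. Lower by any amount were 6711 genes (54.8%) and higher 5536 (45.2%). Counts of list members that were lower or higher without a threshold are to be read beside these shares. At least 1.5-fold higher with DDX3X siRNA were 111 genes (0.906% of those compared), and 108 genes (0.882%) were at least 1.5-fold lower. Moderate shifts were counted at a log2 ratio of at least 0.32 in size, which is 25% higher or 20% lower, and numbered 868 higher (7.09%) and 910 lower (7.43%). Past 2-fold were 2 genes higher and 7 lower. All 219 genes past 1.5-fold had a counting interval that left out 0, but so did 74.4% of all genes compared, so that counting error was not what limited these values. When the libraries were rescaled by the median ratio of their genes, every log2 ratio moved up by 0.05, and the 1.5-fold counts became 159 higher and 76 lower. The balance of higher and lower genes therefore depended on the scaling.

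**Figure D1:**
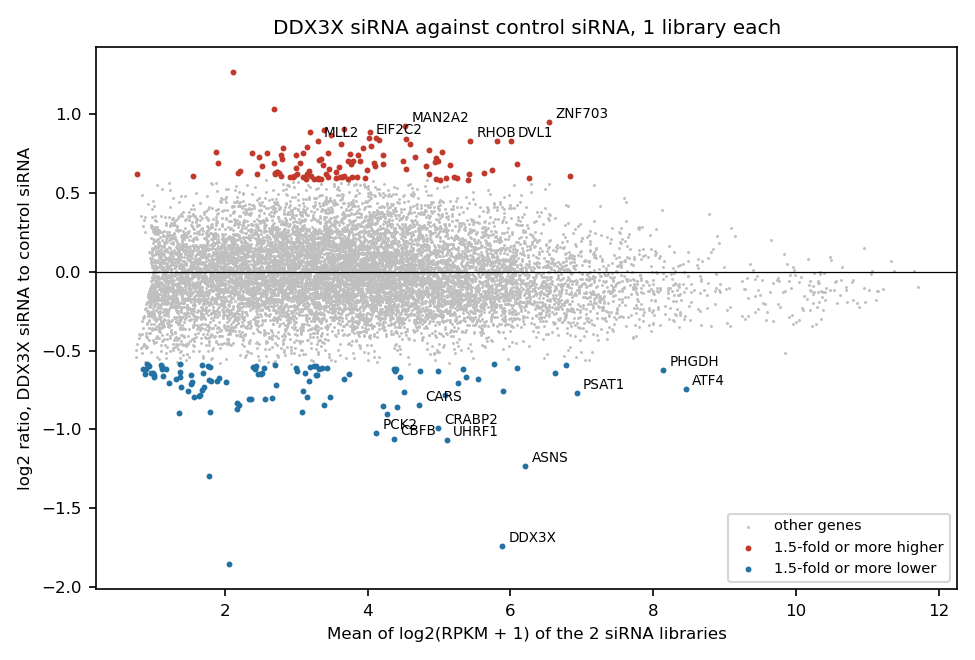
Log2 ratio of DDX3X siRNA to control siRNA (y axis) against the mean of log2(RPKM + 1) in the 2 libraries (x axis), 1 point per gene. Genes at least 1.5-fold higher (111) are red and those at least 1.5-fold lower (108) are blue. ASNS, ATF4, PHGDH and PSAT1 lie low among the well expressed genes, and ZNF703 and DVL1 lie high.

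Genes that respond to amino acid supply were prominent among the lower genes. ATF4, the transcription factor at the centre of the response, was at 453 RPKM with control siRNA, 269.9 with DDX3X siRNA, 487 with GFP, and 479.7, 415 and 379.7 with the wild-type, T275M and G302V constructs (log2 ratio -0.74, 95% counting interval -0.76 to -0.73). The DDX3X siRNA library was the lowest of the 6, and the next lowest, G302V, was well above it. CHAC1, an ATF4 target that degrades glutathione, was at 6.91 RPKM with control siRNA, 1.18 with DDX3X siRNA, 12.04 with GFP, and 14.6, 8.71 and 6.69 with the wild-type, T275M and G302V constructs, with a log2 ratio of -1.86 (95% counting interval -1.98 to -1.73). DDIT4, an inhibitor of mTORC1 signalling, was at 76.6 RPKM with control siRNA, 45.04 with DDX3X siRNA, 42.3 with GFP, and 60.9, 68.3 and 57.4 with the wild-type, T275M and G302V constructs, so its level with DDX3X siRNA was below its control but not below GFP. JDP2, a partner and repressor of AP-1 and ATF proteins, was low throughout, at 2.39 → 1.05 RPKM.

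Of the 22 genes listed as regulators of the integrated stress response, 20 were compared. Of these, 9 were lower by at least 0.32 (45%, against 7.43% of all genes), 4 of them past 1.5-fold (ATF4, CHAC1, DDIT4 and JDP2). Higher by at least 0.32 were 2 (10%, against 7.09% of all genes). The median of the list was -0.11. The 2 higher members were kinases of eIF2, EIF2AK3 (5.23 → 7.305 RPKM), also called PERK, and EIF2AK4 (15.3 → 20.7 RPKM), also called GCN2. DDIT3, a pro-apoptotic factor also called CHOP, was at 14.98 → 11.5 RPKM and TRIB3, a pseudokinase that inhibits AKT and ATF4, at 5.72 → 4.08 RPKM. ATF3 (20.4 → 21.4 RPKM) and CEBPB (5.92 → 6.31 RPKM), transcription factors that many stresses induce, were slightly higher, with log2 ratios of 0.06 and 0.08. The lower levels thus did not extend to every gene of this response.

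**Figure D2:**
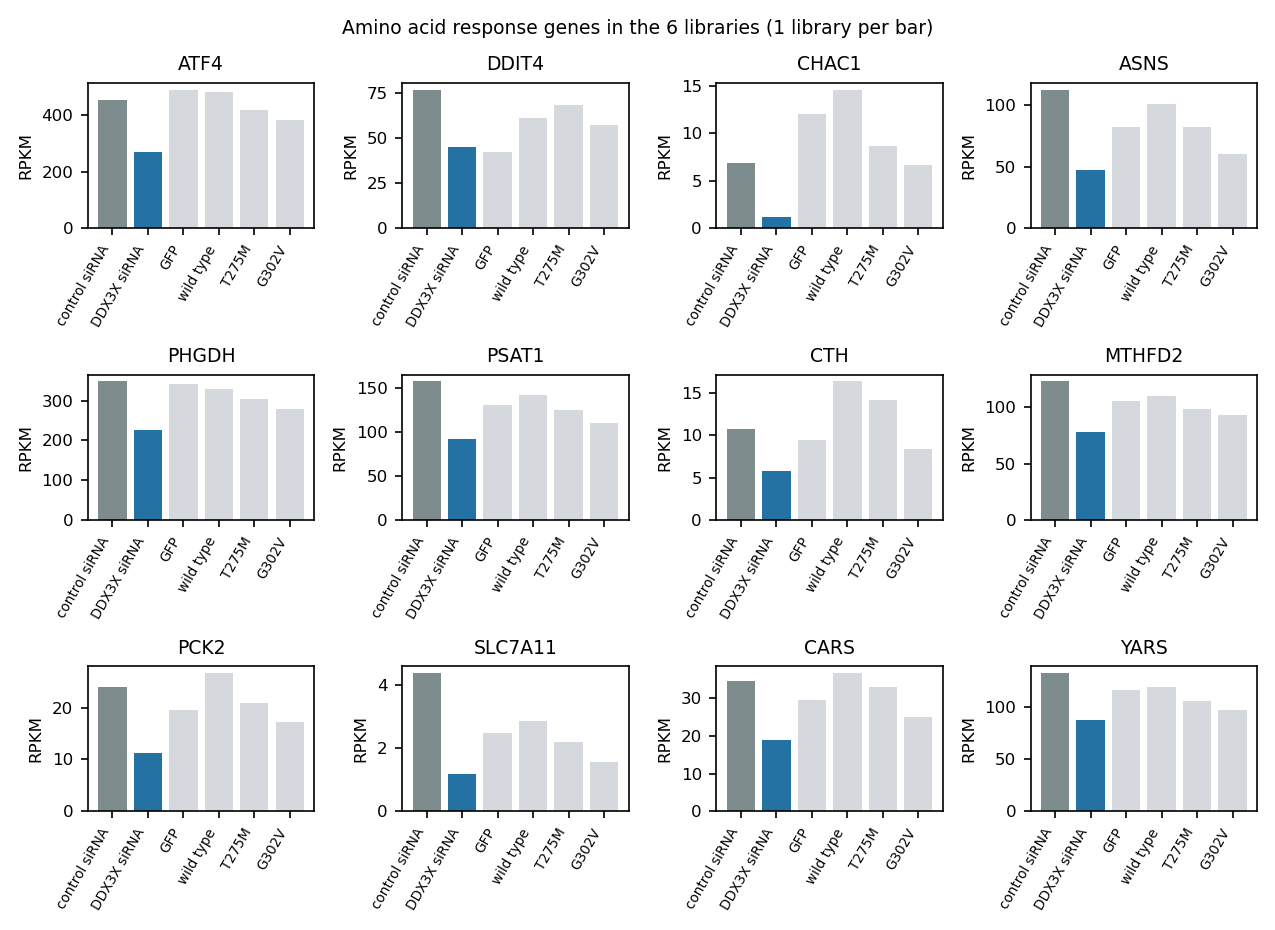
RPKM of 12 genes of the amino acid response in each of the 6 libraries, 1 library per bar and no error bars because no group was replicated. Each y axis starts at 0 and has its own scale. The blue bar, DDX3X siRNA, is the lowest of the 6 for each gene except DDIT4, where GFP is lower.

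Enzymes that make asparagine, serine and one-carbon units were lower as a group. Of 26 genes compared, 22 were lower with DDX3X siRNA, 9 by at least 0.32 (34.6%, against 7.43% of all genes), and the median was -0.22. ASNS, which makes asparagine from aspartate and lies at chr7:97480989-97501854, was at 113 RPKM with control siRNA, 47.3 with DDX3X siRNA, 82.2 with GFP, and 102, 82.5 and 60.9 with the wild-type, T275M and G302V constructs (log2 ratio -1.24, 95% counting interval -1.27 to -1.20). The serine pathway followed in the same direction at each of its steps. PHGDH, its first enzyme, was at 349 → 226 RPKM (-0.63, 95% counting interval -0.64 to -0.61), PSAT1, the second, at 158 → 92.2 RPKM (-0.77, 95% counting interval -0.79 to -0.74), and PSPH, the last, at 20.3 → 13.4 RPKM (-0.57, 95% counting interval -0.63 to -0.51). MTHFD2 and SHMT2, mitochondrial enzymes of folate metabolism, were at 123 → 78.2 RPKM and 142 → 111 RPKM. CTH, which makes cysteine from cystathionine, was at 10.7 → 5.78 RPKM (-0.79, 95% counting interval -0.88 to -0.71).

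PCK2, the mitochondrial phosphoenolpyruvate carboxykinase, is not on this list but was among the 12 genes with the lowest ratios, at 23.9 RPKM with control siRNA, 11.2 with DDX3X siRNA, 19.5 with GFP, and 26.7, 20.9 and 17.2 with the wild-type, T275M and G302V constructs (-1.02, 95% counting interval -1.08 to -0.96). In the other direction, GLUL, which makes glutamine from glutamate, was at 81.8 → 103 RPKM (0.33, 95% counting interval 0.31 to 0.35).

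The cytosolic tRNA synthetases shared the direction, and 22 of 23 were lower. Lower by at least 0.32 were 8 of 23 (34.8%, against 7.43% of all genes), none was higher by as much, and the median was -0.21. CARS, which charges cysteine tRNA, was at 34.5 RPKM with control siRNA, 18.8 with DDX3X siRNA, 29.4 with GFP, and 36.6, 32.9 and 24.8 with the wild-type, T275M and G302V constructs (-0.85, 95% counting interval -0.89 to -0.80). YARS, for tyrosine, was at 133 → 88.1 RPKM (-0.59), SARS, for serine, at 165 → 112 RPKM (-0.56) and MARS, for methionine, at 145 → 99.1 RPKM (-0.54). KARS (138 → 135 RPKM) and QARS (123 → 116 RPKM), for lysine and glutamine, differed by no more than 0.08 on the log2 scale. The 1 gene of the list that was higher, EEF1E1 (28.1 → 31.4 RPKM), is a scaffold of the multisynthetase complex and not a synthetase.

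Amino acid transporters did not move as a group. Of 19 compared, 10 were higher and 9 lower, with a median of 0.03 that changed sign when the length trend described below was removed. Cationic amino acid transporters lay at both ends of the list. SLC7A11, the cystine and glutamate exchanger, was at 4.38 RPKM with control siRNA, 1.19 with DDX3X siRNA, 2.47 with GFP, and 2.85, 2.18 and 1.55 with the wild-type, T275M and G302V constructs (-1.30, 95% counting interval -1.35 to -1.24), and SLC7A3, a cationic amino acid transporter, at 6.81 → 3.45 RPKM. SLC7A2, another cationic amino acid transporter, was higher at 12.6 → 20.7 RPKM (0.67, 95% counting interval 0.63 to 0.71). SLC1A5, which carries glutamine, was past 0.32 lower at 187 → 146 RPKM, and SLC3A2, a subunit of carriers of large neutral amino acids, lay just short of that limit at 117 → 93.8 RPKM.

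These 4 lists together hold 88 genes. Past 1.5-fold lower were 13 of them (14.8%, against 0.882% of all genes) and past 0.32 lower 30 (34.1%, against 7.43%). Higher by the same amounts were 2 and 7 of them, beside 0.906% and 7.09% of all genes. The DDX3X siRNA library was the lowest of the 6 for 27 of the 30 genes, a share near the 91.98% of all genes past 0.32 lower, and 25 of the 30 were still past 0.32 lower once the length trend was removed. The control siRNA library was the highest of the 6 for ASNS, PHGDH, PSAT1, MTHFD2, SLC7A11 and DDIT4, but not for ATF4, CHAC1, CTH, PCK2 or CARS. In the plasmid arm, which shares no library with the siRNA arm, 23 of the 30 were higher with wild-type DDX3X than with GFP alone. That share was near the 77.1% of all genes past 0.32 lower, beside 62.2% of all genes, so it was not particular to these lists.

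Some promoters of these genes hold a known letter pattern. ATF4, paired with a C/EBP protein, binds a composite element (CARE) with the core TGATGNAA. These letters were searched on both strands in RefSeq promoter windows (250 bases before to 50 after a start site, GRCh38.p14). Among list members lower by at least 0.32, 11 of 23 with a window held the core (47.8%). Among all members of the 4 lists it was 19 of 68 (27.9%), among all genes compared 250 of 9710 (2.57%), and among all genes with a window 1217 of 27305 (4.46%). The lists hold known ATF4 targets, so a high share among their members follows in part from how they were chosen. The core was in a window of 8 of 80 genes at least 1.5-fold lower (10%) and 1 of 81 genes at least 1.5-fold higher (1.23%). Among the 8 were ASNS, CARS, CHAC1 and JDP2, which are members of these lists. The following stretches, read 5′ to 3′ on the strand of the gene, lie before the start site and are shown because they hold the core in genes that were lower. Capitals mark the core, which appears as its reverse complement where it lies on the opposite strand.
ASNS (chr7:97872439-97872506, minus strand): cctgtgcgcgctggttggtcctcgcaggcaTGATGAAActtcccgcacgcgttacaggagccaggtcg
CHAC1 (chr15:40953232-40953299, plus strand): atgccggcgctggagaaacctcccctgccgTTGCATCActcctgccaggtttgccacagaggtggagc
JDP2 (chr14:75427976-75428021, plus strand): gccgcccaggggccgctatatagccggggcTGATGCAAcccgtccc
SLC1A5 (chr19:46784874-46784941, minus strand): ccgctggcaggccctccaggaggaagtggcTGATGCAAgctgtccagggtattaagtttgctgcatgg
IARS (chr9:92293698-92293740, minus strand): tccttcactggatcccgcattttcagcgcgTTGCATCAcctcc
The log2 ratios of these genes were -1.24 for ASNS, -1.86 for CHAC1, -0.73 for JDP2, -0.35 for SLC1A5 and -0.36 for IARS. Members that hardly differed also held the core, such as SLC7A1 (29.4 → 28.8 RPKM). A match describes the letters in these windows and does not show binding.

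The genes of DNA replication and cell division were lower by a small and even amount. Of 94 genes on the replication and mitosis lists, 80 were lower, and the median of the 94 was -0.23. For 67 of these 80 the DDX3X siRNA library was the lowest of the 6, beside 65.95% of all genes with a ratio below 0. Set over all 94 genes, the same 67 stand beside 36.1% of all genes compared. On the replication list alone, 45 of 54 were lower (median -0.21), 13 past 0.32 (24.1%, against 7.43% of all genes) and none past 1.5-fold lower. MCM2, a subunit of the replicative helicase, was at 132 → 93.3 RPKM (-0.49, 95% counting interval -0.51 to -0.47), PRIM1, the primase, at 38.1 → 27.1 RPKM, and TK1, thymidine kinase, at 60.4 → 44.5 RPKM. PCNA, the sliding clamp of the polymerases, was at 242 RPKM with control siRNA, 180.5 with DDX3X siRNA, 245 with GFP, and 270.2, 249.96 and 224 with the wild-type, T275M and G302V constructs. One member stood out the other way, since E2F1, a transcription factor that drives many of these genes, was at 17.5 RPKM with control siRNA, 28.1 with DDX3X siRNA, 28.9 with GFP, and 30.1, 26.5 and 26.2 with the wild-type, T275M and G302V constructs (0.66, 95% counting interval 0.60 to 0.71). The control siRNA library was the lowest of the 6 for E2F1, and the DDX3X siRNA library lay among the plasmid libraries.

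On the mitosis list, 35 of 40 genes were lower (median -0.24), 11 past 0.32 (27.5%, against 7.43% of all genes) and none past 1.5-fold. Without the length trend described below 6 were past 0.32 and the median was -0.22. KIF2C, a microtubule depolymerase of the centromere, was at 36.5 → 24.4 RPKM (-0.56), CDC25C, the phosphatase that activates CDK1, at 15.6 → 11.3 RPKM (-0.44), and NDC80, of the outer kinetochore, at 17.7 → 13.1 RPKM (-0.41). FOXM1, a transcription factor of the G2 phase, was at 44.8 → 52.7 RPKM (0.23) and the proliferation marker MKI67 at 21.3 → 23.1 RPKM (0.11). In RNA from a whole culture, fewer cells in a phase of the cycle and less RNA per cell cannot be told apart.

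The E2F core TTTCCCGC, the letters that E2F factors are known to bind, was searched in the same way in the promoters of the genes for replication and DNA methylation. It was in a window of 7 of 14 members lower by at least 0.32 (50%) and of 14 of 59 members in all (23.7%). Among genes compared it was 334 of 9710 (3.44%), and among all genes with a window 540 of 27305 (1.98%). The replication list was drawn up to hold E2F targets as well, so a high share among its members follows in part from that choice. Among all genes, list members included, 4 of 80 at least 1.5-fold lower (5%) and 1 of 81 at least 1.5-fold higher (1.23%) held the core. Among the 4 was UHRF1, which is a member of these lists. Stretches before the start site of 4 genes that were lower are shown, from the same windows and build, with the core in capitals, which reads GCGGGAAA where it lies on the opposite strand.
UHRF1 (chr19:4909457-4909500, plus strand): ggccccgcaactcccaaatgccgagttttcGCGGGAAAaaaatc
HELLS (chr10:94545750-94545787, plus strand): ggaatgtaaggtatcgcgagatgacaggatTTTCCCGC
PCNA (chr20:5126644-5126711, minus strand): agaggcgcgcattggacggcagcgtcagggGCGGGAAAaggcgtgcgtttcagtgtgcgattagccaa
MCM7 (chr7:100101547-100101614, minus strand): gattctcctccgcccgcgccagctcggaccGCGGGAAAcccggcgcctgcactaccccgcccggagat
UHRF1, which recruits DNMT1 to newly replicated DNA, had a log2 ratio of -1.07 (95% counting interval -1.10 to -1.04), far from the -0.42 of PCNA, the -0.40 of HELLS, a chromatin remodeller, and the -0.40 of MCM7, a helicase subunit. UHRF1 was at 48.9 RPKM with control siRNA, 22.8 with DDX3X siRNA, 57.3 with GFP, and 57.2, 50.01 and 46.5 with the wild-type, T275M and G302V constructs. The other 5 libraries lay close together, and the DDX3X siRNA value was under all of them.

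The rest of the DNA methylation machinery went both ways, with 10 of 19 genes higher, 9 lower and a median of 0.00. The TET dioxygenases, which oxidise 5-methylcytosine, were higher, TET3 at 3.01 → 5.77 RPKM (0.76, 95% counting interval 0.71 to 0.81) and TET1 at 3.87 → 6.28 RPKM (0.58). Both rows are long, and without the length trend the ratios were 0.53 and 0.39, so that TET3 was no longer past 1.5-fold. DNMT3A, a de novo methyltransferase, was at 4.05 → 5.06 RPKM, and DNMT1, the maintenance methyltransferase, at 65.5 → 57.8 RPKM.

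Protein folding and protein degradation genes split by compartment. Of 22 genes of the unfolded protein response of the endoplasmic reticulum, 19 were higher, 4 of them past 0.32 (18.2%, against 7.09% of all genes) and none past 1.5-fold, with a median of 0.18. The DDX3X siRNA library was the highest of the 6 for 18 of the 19. The same held for 22.4% of all genes and 49.7% of all genes with a ratio above 0. SEL1L, an adaptor of the ubiquitin ligase that clears misfolded proteins, was at 9.89 RPKM with control siRNA, 15.1 with DDX3X siRNA, 6.65 with GFP, and 6.37, 7.07 and 8.38 with the wild-type, T275M and G302V constructs (0.56, 95% counting interval 0.52 to 0.60). EDEM1, which marks misfolded glycoproteins, was at 8.09 → 11.5 RPKM and HYOU1, a chaperone, at 71.8 → 93.6 RPKM. For SEL1L and HYOU1 both siRNA libraries were above every plasmid library, whereas for EDEM1 the G302V library, at 8.57 RPKM, was above control. The abundant chaperones shifted less, at 495 → 599.9 RPKM for CALR and at 438 → 514 RPKM for HSP90B1. XBP1, a transcription factor of this response, was at 104 → 103 RPKM and HERPUD1, one of its targets, at 26.1 → 23.8 RPKM, so that these 2 genes were not higher.

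Cytosolic chaperones had the opposite sign. Of 18 heat shock genes compared, 15 were lower (83.3%, against 54.8% of all genes), none by 0.32, with a median of -0.22. HSP90AA1, the inducible HSP90, came closest to that limit at 1139 → 915 RPKM (-0.32), whereas HSPA8, the constitutive HSP70, was at 748 → 859 RPKM (0.20). HSPA1B has a near-identical copy, and its 667 → 549 RPKM may hold reads of both. Of 41 proteasome subunits, 37 were lower (90.2%, against 54.8% of all genes), 7 past 0.32 (17.1%, against 7.43%), with a median of -0.22. Their rows were short, and once the length trend described below was removed 1 of the 41 was past 0.32 lower and the median was -0.15. PSMC2, an ATPase of the cap, was at 49.3 → 34.997 RPKM (-0.48), and PSMB7, a catalytic subunit, at 186 → 143 RPKM (-0.38).

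**Figure D3:**
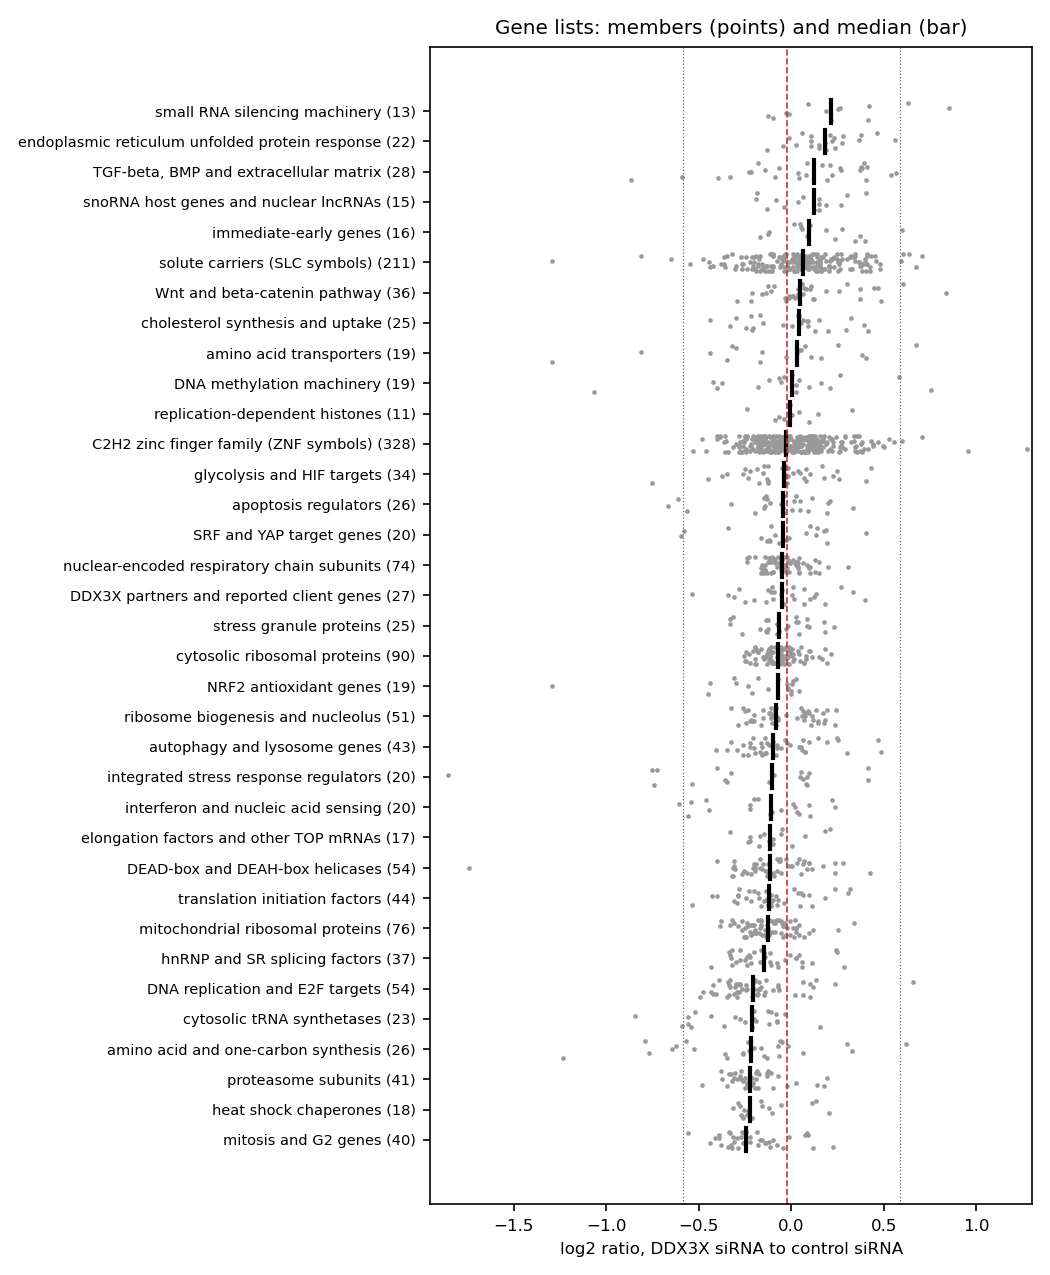
Log2 ratio of DDX3X siRNA to control siRNA (x axis) for the members of 35 gene lists (rows, number of genes compared in brackets), with 1 point per gene and a bar at each median. The dashed line is the median of all genes, -0.03, and the dotted lines mark 1.5-fold. Medians run from -0.24 for mitosis genes to 0.22 for the small RNA silencing machinery.

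Genes of translation itself differed little. Of 90 rows for cytosolic ribosomal proteins, a few of them pseudogenes that may share reads with their parents, none was past 0.32 and the median was -0.07, which became 0.03 after removal of the length trend. Of 44 initiation factors, 33 were lower (75%, against 54.8% of all genes) and 3 past 0.32 (6.82%, against 7.43%), with a median of -0.12. EIF4EBP1, which holds back the cap-binding protein and is itself an ATF4 target, was at 129 → 88.5 RPKM (-0.54, 95% counting interval -0.58 to -0.49), and EIF5, a GTPase-activating factor, at 52.01 → 65.1 RPKM. Among 54 DEAD-box and DEAH-box helicases the median was -0.12, and DDX3X was the 1 member past 1.5-fold. EIF4A3, of the exon junction complex, was at 149 → 112 RPKM (-0.40) and DHX33, a helicase of the nucleolus, at 22.2 → 30.1 RPKM (0.42). Of 37 hnRNP and SR proteins, which guide splicing, 28 were lower (75.7%, against 54.8% of all genes) and 6 past 0.32 (16.2%, against 7.43%). Without the length trend 1 was past it, HNRNPH3, at 145 → 107 RPKM. Stress granule proteins had a median of -0.07, with 2 of 25 past 0.32 lower (8%, against 7.43% of all genes). The 27 genes compared on a list of DDX3X partners and reported clients had a median of -0.05. In each direction 2 were past 0.32 (7.41%, against 7.43% of all genes lower and 7.09% higher). CDKN1A, a cell-cycle inhibitor, was at 5.54 → 6.88 RPKM, and RAC1, a small GTPase, at 96.8 → 79.3 RPKM.

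Mitochondrial genes were similarly flat. None of 74 nuclear-encoded respiratory chain subunits was past 0.32 (median -0.05). Of 76 mitochondrial ribosomal proteins, 4 were past it lower (5.26%, against 7.43% of all genes) and 1 higher (1.32%, against 7.09%), with a median of -0.13. These counts became 0 lower and 2 higher without the length trend (median -0.03). Ribosome biogenesis genes had 1 of 51 past 0.32 lower (1.96%, against 7.43% of all genes) and a median of -0.08.

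Many innate immune genes were low in both libraries, and 18 of 38 did not reach 1 RPKM in either. Of the 20 compared, none was past 0.32 higher and 5 were past it lower (25%, against 7.43% of all genes). IFITM2, which blocks virus entry, was at 11.7 RPKM with control siRNA, 7.35 with DDX3X siRNA, 12.9 with GFP, and 17.3, 13.7 and 11.7 with the wild-type, T275M and G302V constructs (-0.61, 95% counting interval -0.75 to -0.47), and IFITM1, its close paralog, at 18.5 → 12.2 RPKM (-0.56), so that reads may be split between them. IFI6, another interferon-induced gene, was at 16.3 → 11.6 RPKM, with its control level the highest of the 6 and GFP the lowest at 10.5 RPKM. Of 19 NRF2 antioxidant genes, 14 were lower (73.7%, against 54.8% of all genes) and 3 past 0.32 (15.8%, against 7.43%). These 3 were SLC7A11, HMOX1 (9.75 → 6.88 RPKM), which degrades haem, and ME1 (10.5 → 7.46 RPKM), the malic enzyme.

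Death and stress genes went both ways. PMAIP1, the BH3-only protein NOXA, was at 26.5 RPKM with control siRNA, 16.3 with DDX3X siRNA, 30.6 with GFP, and 45.9, 44.4 and 27.7 with the wild-type, T275M and G302V constructs (-0.67, 95% counting interval -0.73 to -0.61), and CASP8, the initiator caspase of death receptors, was at 6.26 → 3.75 RPKM (-0.61, 95% counting interval -0.75 to -0.47). Among 26 apoptosis regulators, 4 were past 0.32 lower (15.4%, against 7.43% of all genes) and 1 past it higher (3.85%, against 7.09%), with a median of -0.04. TNFRSF10B, a TRAIL receptor, was at 38.1 → 48.2 RPKM. Of 16 immediate-early genes, 13 were higher and 4 past 0.32 (25%, against 7.09% of all genes), with a median of 0.09. The DDX3X siRNA library was the highest of the 6 for 0 of the 16, beside 22.4% of all genes. JUND was at 26.8 → 41.1 RPKM (0.60), at 34.2 with GFP and at 39.2, 37.7 and 41.3 with wild type, T275M and G302V. JUN was at 80.8 → 105 RPKM (0.37), at 104 with GFP and at 152, 167 and 148 with wild type, T275M and G302V. SLC2A1, the glucose transporter, was at 21.2 → 29.01 RPKM, within a glycolysis and hypoxia list whose median was -0.04. Cholesterol genes also went both ways, with INSIG1, a sterol sensor, at 49.9 → 66.8 RPKM, but ACAT2, an early enzyme, at 89.6 → 71.04 RPKM.

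Other genes with low ratios had varied roles. CBFB, the partner of the RUNX transcription factors at chr16:67062887-67134961, was at 28.96 RPKM with control siRNA, 13.4 with DDX3X siRNA, 25.02 with GFP, and 29.1, 30.8 and 30.3 with the wild-type, T275M and G302V constructs (-1.06, 95% counting interval -1.11 to -1.02). The 5 other libraries lay between 25.02 and 30.8 RPKM, so the DDX3X siRNA value was apart from all of them. CRABP2, which carries retinoic acid to the nucleus, was at 43.8 RPKM with control siRNA, 21.5 with DDX3X siRNA, 44.6 with GFP, and 56.9, 60.9 and 47.4 with the wild-type, T275M and G302V constructs (-0.99, 95% counting interval -1.06 to -0.93), again the lowest. PROCR, the endothelial protein C receptor, was at 25.3 → 13.1 RPKM (-0.90), but GFP was at 15.3 RPKM, nearer to DDX3X siRNA than to control. DDR2, a collagen receptor kinase, was at 10.5 → 5.21 RPKM (-0.89), and its GFP level of 4.898 RPKM was below both. For PROCR and DDR2, as for ASNS and several other amino acid genes above, the control siRNA library was the highest of the 6. IFRD1, a transcriptional regulator, was at 24.04 RPKM with control siRNA, 12.9 with DDX3X siRNA, 16.8 with GFP, and 30.5, 25.7 and 19.1 with the wild-type, T275M and G302V constructs (-0.85, 95% counting interval -0.90 to -0.80). SLAIN1, a microtubule plus-end protein, was at 27.6 → 14.7 RPKM (-0.86). HLA-DQB1 (13.05 → 6.81 RPKM), a class II antigen, has close paralogs and its value is uncertain. COL1A1, a fibrillar collagen and the 1 fibroblast marker compared, was at 5.07 → 2.32 RPKM (-0.87, 95% counting interval -0.93 to -0.80).

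HOX genes, the homeobox factors that set position along the body axis, were gathered after their values had been seen, so their counts are a description. Of 39 in the files, 35 were compared, 34 were lower and 18 were past 0.32 (51.4%, against 7.43% of all genes), with a median of -0.32. Their rows were short. Without the length trend described below 11 were past 0.32 lower, beside 664 of all 12247 genes, and the median was -0.25. Every one of the 28 genes compared in the HOXA, HOXB and HOXC clusters was lower. Medians were -0.28 for HOXA, -0.41 for HOXB, -0.32 for HOXC and -0.11 for HOXD. HOXB6 was at 28.6 RPKM with control siRNA, 16.4 with DDX3X siRNA, 29.9 with GFP, and 36.2, 33.8 and 28.2 with the wild-type, T275M and G302V constructs (-0.76, 95% counting interval -0.82 to -0.70). HOXB9 was at 58.3 RPKM with control siRNA, 36.01 with DDX3X siRNA, 58.8 with GFP, and 69.1, 62.7 and 52.8 with the wild-type, T275M and G302V constructs (-0.68, 95% counting interval -0.71 to -0.65). For both, DDX3X siRNA was the lowest of the 6 and wild-type GFP-DDX3X the highest. HOXA10 (57.1 → 41.02 RPKM), HOXA11 (17.5 → 11.998 RPKM) and HOXC6 (8.39 → 5.57 RPKM) were also past 0.32 lower, while HOXD13 was at 64.9 → 65.6 RPKM. Over all 35 genes, the DDX3X siRNA library was the lowest of the 6 for 32, beside 36.1% of all genes and 91.98% of those past 0.32 lower. With wild type 32 were higher than with GFP, beside 62.2% of all genes and 77.1% of those past 0.32 lower. Genes of a cluster are neighbours and some of their transcripts overlap, so they are not independent.

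Among genes that were higher, row length moved with the ratio. When the 12247 genes were divided by row length into 5 bins of about equal size, the median log2 ratio was -0.11 in the shortest, then -0.08, -0.04 and 0.00, and 0.10 in the longest. Of the 111 genes at least 1.5-fold higher, 58 were in the longest bin and 7 in the shortest, and of the 108 lower genes 3 were in the longest and 40 in the shortest. The median row was 5071 bases among higher genes, 1878 among lower genes and 2744 among all. When the trend with length was subtracted, 87 genes were 1.5-fold higher and 70 lower, of which 67 and 63 were also past 1.5-fold before. The part of length in the difference of any single gene was not tested, and values without the trend are given beside the counts that it changed most.

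**Figure D4:**
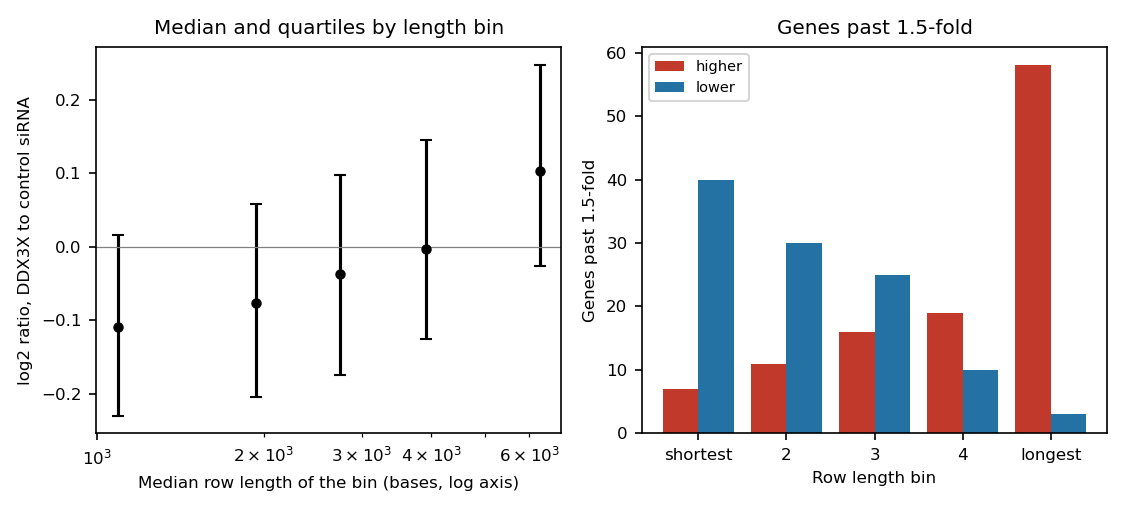
Left, median (point) and quartiles (bars) of the log2 ratio of DDX3X siRNA to control siRNA in 5 bins of the genes by row length, against the median length of the bin on a log axis. Right, number of genes at least 1.5-fold higher (red) or lower (blue) in each bin. The median goes from -0.11 in the shortest bin to 0.10 in the longest, and 58 of the 111 higher genes are in the longest.

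The genes with the highest ratios included several of ordinary length. ZNF703, a transcriptional corepressor, was at 65.7 RPKM with control siRNA, 128 with DDX3X siRNA, 77.7 with GFP, and 91.2, 91.3 and 105 with the wild-type, T275M and G302V constructs (0.95, 95% counting interval 0.92 to 0.98, and 1.02 without the length trend). HES6, a regulator of Notch-dependent differentiation, was at 11.9 RPKM with control siRNA, 22.3 with DDX3X siRNA, 16.1 with GFP, and 15.6, 14.95 and 17.98 with the wild-type, T275M and G302V constructs (0.85, 0.95 without the trend). LIMK1, the kinase of cofilin at chr7:73497263-73536855, was at 16.3 RPKM with control siRNA, 30.1 with DDX3X siRNA, 18.01 with GFP, and 16.3, 18.2 and 21.3 with the wild-type, T275M and G302V constructs (0.84, 95% counting interval 0.79 to 0.89). For these 3 genes DDX3X siRNA gave the highest of the 6 levels and, among the plasmid libraries, G302V the next. MAN2A2, a mannosidase of glycan processing, was at 15.7 RPKM with control siRNA, 30.7 with DDX3X siRNA, 17.1 with GFP, and 20.2, 23.1 and 27.6 with the wild-type, T275M and G302V constructs (0.93, 95% counting interval 0.89 to 0.96), and RAPGEF1, an exchange factor for RAP1, at 11.02 RPKM with control siRNA, 21.3 with DDX3X siRNA, 11.8 with GFP, and 10.5, 11.9 and 14.5 with the wild-type, T275M and G302V constructs (0.89, 95% counting interval 0.85 to 0.93). The G302V level of MAN2A2 was close to that with DDX3X siRNA, so the siRNA library stood apart less clearly there than for RAPGEF1. TRIM8, a ubiquitin ligase, was at 12.3 → 22.8 RPKM, ABCA3, a lipid transporter, at 8.299 → 16.4 RPKM, and LONRF1, FAM53B and PSKH1 had log2 ratios of 0.90, 0.87 and 0.89. The rows of MAN2A2, RAPGEF1, ABCA3 and FAM53B were in the longest bin. Without the length trend their ratios were 0.83, 0.80, 0.80 and 0.79. ZNF628, a zinc finger gene, had the highest ratio of all, 1.27 (95% counting interval 1.18 to 1.36), at a low level of 1.78 → 5.72 RPKM.

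**Figure D5:**
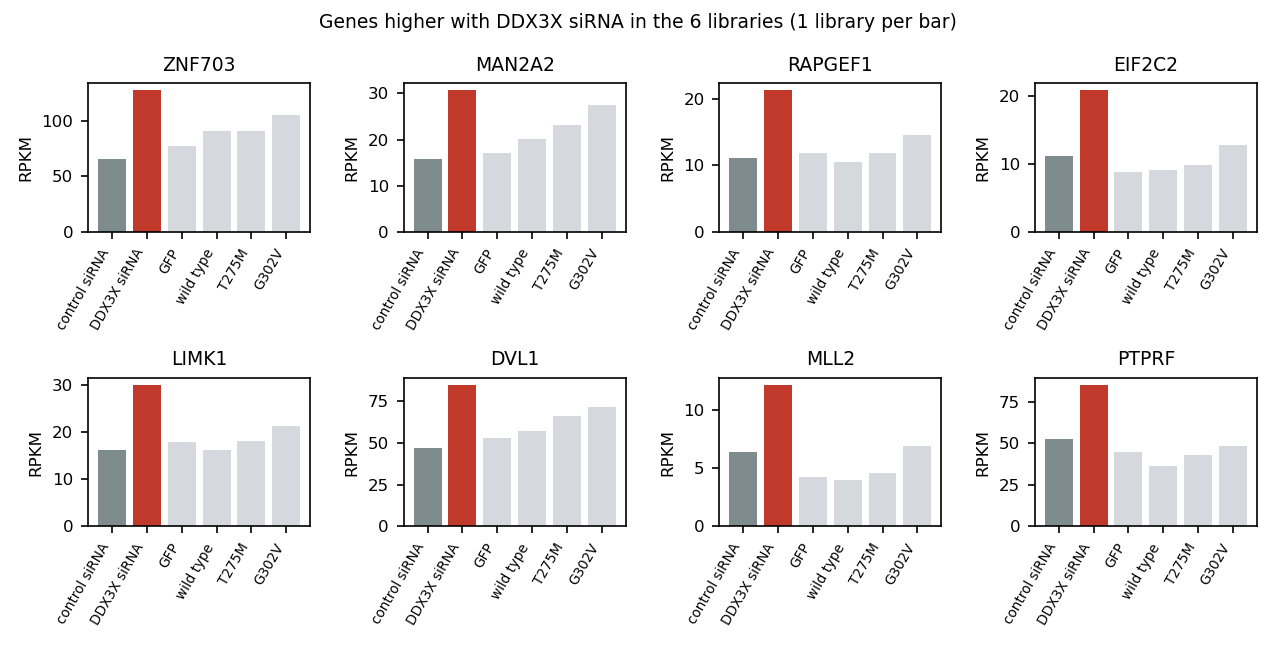
RPKM of 8 genes that were higher with DDX3X siRNA in each of the 6 libraries, 1 library per bar and no error bars because no group was replicated. Each y axis starts at 0 and has its own scale. The red bar, DDX3X siRNA, is the highest of the 6 in each panel, and the margin over G302V is smallest for MAN2A2 and DVL1.

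In the Wnt pathway, 7 of 36 genes were higher by at least 0.32 (19.4%, against 7.09% of all genes) and none was past it lower (against 7.43%), with a median of 0.05. Without the length trend, 4 were past 0.32 higher and 1 lower, with a median of 0.06. DVL1, which carries the signal from the receptor, was at 47.3 RPKM with control siRNA, 84.98 with DDX3X siRNA, 53.2 with GFP, and 57.3, 66.2 and 71.9 with the wild-type, T275M and G302V constructs (0.83, 95% counting interval 0.80 to 0.86). ZNRF3, a ligase that removes the receptor, was at 5.1001 → 8.27 RPKM (0.60) and AXIN1, a scaffold of the destruction complex, at 15.96 → 22.7 RPKM (0.48). CCND1, a commonly used target gene of the pathway, was at 17.7 → 15.1 RPKM (-0.21) and CTNNB1, beta-catenin itself, at 177 → 166 RPKM.

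Of 13 genes of small RNA silencing, 4 were higher by at least 0.32 (30.8%, against 7.09% of all genes) and none was lower by as much. EIF2C2, now named AGO2 and the slicing Argonaute, was at 11.1 RPKM with control siRNA, 20.9 with DDX3X siRNA, 8.86 with GFP, and 9.02, 9.88 and 12.8 with the wild-type, T275M and G302V constructs (0.85, 95% counting interval 0.79 to 0.91). EIF2C1 (AGO1) was at 8.73 → 11.96 RPKM, EIF2C4 (AGO4) at 2.65 → 4.65 RPKM and PRKRA, a partner of Dicer, at 26.5 → 35.8 RPKM. The nuclease DROSHA was at 24.003 → 21.9 RPKM. The median of the list was 0.22 and 0.05 without the length trend, whereas EIF2C2 kept 0.85.

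Families of long genes were examined after their values had been seen. Over all genes, 7.09% were past 0.32 higher. All 12 plexins and cadherin-related receptors compared were higher, 7 past 0.32, with a median of 0.36. Without the length trend 3 were past 0.32 and the median was 0.10. FAT1, a giant protocadherin, was at 5.75 RPKM with control siRNA, 10.7 with DDX3X siRNA, 2.82 with GFP, and 2.75, 3.33 and 4.14 with the wild-type, T275M and G302V constructs (0.79, 0.49 without the trend), so that both siRNA libraries were above the plasmid libraries. Of 12 laminin and basement membrane genes, 10 were higher (median 0.33, or 0.17 without the trend), with AGRN at 12.5 → 20.8 RPKM and LAMA5 at 6.99 → 12.1 RPKM. The LAMA5 level in the G302V library, 13.1 RPKM, was above that with DDX3X siRNA. Of 9 receptor tyrosine phosphatases, 8 were higher (median 0.35, or 0.23), led by PTPRF at 52.6 RPKM with control siRNA, 85.1 with DDX3X siRNA, 44.8 with GFP, and 36.3, 42.7 and 48.6 with the wild-type, T275M and G302V constructs (0.68, 0.54 without the trend). Of 26 histone lysine methyltransferases, 22 were higher and 9 past 0.32, or 5 without the trend (median 0.21, or 0.13), with MLL2, now KMT2D, at 6.39 RPKM with control siRNA, 12.1 with DDX3X siRNA, 4.21 with GFP, and 3.95, 4.62 and 6.89 with the wild-type, T275M and G302V constructs (0.83, 0.45 without the trend) and NSD1 at 16.8 → 27.9 RPKM. EZH2, the methyltransferase of the Polycomb complex, was at 43.1 → 37.1 RPKM (-0.21).

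Matrix and growth factor genes went in both directions. Of 28 compared, 8 were higher by at least 0.32 (28.6%, against 7.09% of all genes) and 4 past it lower (14.3%, against 7.43%), with a median of 0.12. Without the length trend these counts were 4 and 3 and the median was 0.06. FBN2, a microfibril protein, was at 9.94 → 15.2 RPKM (0.57, or 0.35 without the trend) and COL4A2, a basement membrane collagen, at 12.2 → 18.2 RPKM (0.54, or 0.44), but COL9A3, a cartilage collagen, was at 1.64 → 0.754 RPKM and TGFB1, the growth factor, at 5.78 → 4.15 RPKM. Among cytoskeletal targets of SRF and YAP, CNN2, a calponin, was at 10.9 → 6.896 RPKM (-0.60) and TPM1, a tropomyosin, at 28.4 → 18.6 RPKM (-0.58), and the median of the 20 genes was -0.05.

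The other 4 libraries show how far a level lay from the rest of the study. The DDX3X siRNA library was the lowest of the 6 for 104 of the 108 genes at least 1.5-fold lower (96.3%), beside 66.0% of all 6711 genes that were lower than control by any amount. It was the highest of the 6 for 95 of the 111 genes at least 1.5-fold higher (85.6%), beside 49.7% of 5536. The control siRNA library was the lowest of the 6 for 56 of the 111 higher genes (50.5%), beside 35.9% of all genes higher than control. It was the highest for 35 of the 108 lower ones (32.4%), beside 21.0% of all genes lower than control. For these genes the control level itself lay at the edge of the 6. The siRNA cells were unsorted and the plasmid cells sorted, so treatment and sorting cannot be told apart between the arms.

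In the plasmid arm, most of the genes that were lower with the siRNA were higher when DDX3X was added. Of the 107 genes other than DDX3X at least 1.5-fold lower with its siRNA, 96 were higher with GFP-DDX3X wild type than with GFP alone (89.7%), beside 62.2% of all genes, and their median log2 ratio of wild type to GFP was 0.20, beside 0.05. Most of those differences were below 0.32, and 28 of the 107 were higher by that much or more, beside 1054 of all 12246 genes. CTH had a log2 ratio of wild type to GFP of 0.73, IFRD1 of 0.82, PMAIP1 of 0.57, PCK2 of 0.43 and ASNS of 0.30, but ATF4 of -0.02 and UHRF1 of 0.00. Of the 111 genes at least 1.5-fold higher with the siRNA, 63 were also higher with wild type (56.8%). Across 12246 genes, Pearson's r between the siRNA difference and the wild-type difference was -0.12, a description over genes that share libraries and are not independent replicates.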

How the data were processed

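Total RNA of HEK293T cells was made into 6 libraries, 1 per group, with groups taken from the sample labels. The deposited values are RPKM per RefSeq accession, as the file headers name them, and the methods of the study call the normalisation FPKM. Per the methods, the authors aligned reads with BWA to NCBI Build 37, RefSeq and AceView sequences, kept the best alignment, removed duplicates, and divided counts by length and total reads. The submitters' processing notes name BWA 0.5.5, cutadapt and hg19. Isoforms and near-identical copies share reads, and the kit does not mark strand, so values of histones, paralogs and overlapping genes are uncertain.

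Low RPKM values multiplied by row length were whole multiples of 1 step within a tolerance of 0.1, which gave the reads behind each value and each library's depth. In a row of 2000 bases, 3 reads are worth 0.0222 RPKM with control siRNA and 0.00829 RPKM with DDX3X siRNA. Genes needed 1 RPKM in either siRNA library and a row of 200 bases or longer, which left out 450 symbols with shorter rows. Ratios used a pseudocount of 1 RPKM. Exact Clopper-Pearson 95% intervals of the share of reads were moved to that scale, and cover counting error only, since the libraries had no molecular identifiers. With 1 library per group no test was run. Genes were called at 1.5-fold, and a log2 ratio of 0.32 or more in size described moderate shifts.

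The genes named are DDX3X, the 12 largest ratios in each direction among genes past 1.5-fold with 10 RPKM or more, and in each list every member past 1.5-fold and the 3 highest and 3 lowest members with 5 RPKM or more. DDIT3, TRIB3, ATF3, CEBPB, PSPH, SHMT2, MARS, IARS, MCM7, DNMT1, SLC7A1, CTNNB1, CALR and HSP90B1 lie outside this rule and were chosen after their values were seen. The genes compared and the 40 lists, 4 of them of cell type markers, were chosen with earlier results of these data known, and 8 families (HOX clusters and families of long genes) after seeing the ratios. Lists are described by counts and medians. The length trend was a quadratic fit of the log2 ratio on log2 row length, tried alone and with GC content, which was found for 98.8% of genes. Gene positions are from GENCODE 44 mapped to GRCh37. Promoter windows are from RefSeq on GRCh38.p14 and matched by symbol for 9710 of 12247 genes, and a gene was counted when any of its windows held a motif. Alternatives were other pseudocounts, filters, scalings and row choices. Python 3.11.15, numpy 2.4.6, pandas 2.3.3 and scipy 1.17.1 were used, and the steps were tested on simulated data. Some items are not reported here.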

Additional observations from a re-analysis of the deposited data

How the results depend on the processing

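No paired analysis was possible because the comparison holds 1 library per group and comes from no test, and for the same reason no library could be left out. The counts past 1.5-fold depended on how weakly expressed and long genes were treated. With a pseudocount of 0.1 they were 185 higher and 286 lower, and with a pseudocount of 10 they were 10 and 16. A minimum of 10 RPKM left 46 lower. Adding up the rows of a symbol gave 164 lower, and scaling by depth without division by length gave 179 lower. Removal of the length trend gave 70 lower, and removal of length and GC trends, an alternative chosen after seeing the data, gave 68 higher and 69 lower. A 2-fold threshold left 2 higher and 7 lower. Among moderate shifts (0.32 or more), a pseudocount of 10 gave 201 higher and 171 lower, and a minimum of 10 RPKM gave 534 and 427. Median-ratio scaling gave 1195 higher and 625 lower among moderate shifts. The log2 ratio of ASNS stayed between -1.25 and -1.10 and that of ATF4 between -0.75 and -0.65. Of 68 named genes past 1.5-fold, 62 stayed past it with median-ratio scaling, 43 without the length trend and 20 with a pseudocount of 10. None changed direction, but most alternatives could not have reversed such a gene. Another pseudocount or filter leaves the sign of a ratio as it is, and median-ratio scaling moved each ratio by 0.05. The medians of the lists for amino acid synthesis, tRNA synthetases, replication, mitosis, heat shock, proteasome and the endoplasmic reticulum kept their sign in all 11 alternatives, whereas those for amino acid transporters, DNA methylation, ribosomal proteins, respiratory chain, interferon, glycolysis, histones, zinc fingers, apoptosis and DDX3X partners did not. The depth limits no gene named here, but the missing replicates limit all of them.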

Other observations

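Large families differed in how many members were higher. Among 328 zinc finger genes with ZNF symbols, 27 were higher by at least 0.32 (8.23%, against 7.09% of all genes) and 12 lower (3.66%, against 7.43%), with a median log2 ratio of -0.03. ZNF592 was at 9.93 → 16.8 RPKM and ZNF275 at 5.93 → 9.502 RPKM, while ZNF24 was at 39.7 → 30.2 RPKM. Among 211 solute carriers, 33 were higher by at least 0.32 (15.6%) and 13 lower (6.16%), with a median of 0.06. Without the length trend the counts were 29 and 12. SLC30A1, which exports zinc, was at 7.06 → 11.2 RPKM, SLC23A2, which takes up vitamin C, at 8.48 → 13.7 RPKM, and SLC7A8, a transporter of neutral amino acids, at 5.896 → 3.401 RPKM. Of 15 snoRNA host genes and nuclear long noncoding RNAs, 10 were higher (66.7%, against 45.2% of all genes). SNHG4 was at 22.3 → 29.9 RPKM and NEAT1, the scaffold of paraspeckles, at 59.9 → 52.6 RPKM. Of 43 autophagy and lysosome genes, 29 were lower (67.4%, against 54.8% of all genes). ATP6V1C1, a proton pump subunit, was at 15.9 → 11.8 RPKM, but LAMP2, a lysosomal membrane protein, was at 31.4 → 43.8 RPKM. Of 17 elongation factors and other TOP mRNAs, 13 were lower (76.5%, against 54.8% of all genes), with NACA at 941 → 805 RPKM. Only 11 of 70 replication-dependent histone genes reached 1 RPKM, with a median of -0.01, and their near-identical copies make these values uncertain. MYC was at 79.02 → 72.2 RPKM.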
